A study of Homo sapiens with 6 samples.

Results

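The genes described here are the feedback brakes and transcriptional outputs of the ERK pathway in colorectal carcinoma cells: the phosphatases DUSP4, DUSP5 and DUSP6, the Sprouty genes SPRY1, SPRY2 and SPRY4, the Sprouty-related genes SPRED1 and SPRED2, and the ETS factors ETV4 and ETV5. They were chosen by symbol for their function, with earlier results of these data known. These genes make up 10 of the 19223 gene symbols in the deposited table, where they are listed with 26 of 45006 transcripts. Cells of LoVo, an established human line derived from adenocarcinoma of the colon, were kept with vehicle (Control) or exposed to DCC-2036 (rebastinib), a tyrosine kinase inhibitor, at 2.5 μM. The labels give 48 h for all samples, whereas a figure legend of the study gives a shorter time. Total RNA was taken with Trizol from 3 Control and 3 DCC-2036 samples, and libraries were made with the Nextera XT kit, in order to compare the transcriptome with and without the drug. Whether the samples of a group came from separate cultures is not given in the labels, so p-values measure the spread between these samples, which may be technical.

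The values are a signal per transcript that the authors had already adjusted to a common depth, so the number of reads behind a value is unknown. The columns sum to between 38997229 and 40587145 in the Control libraries and between 43279603 and 48023306 in the DCC-2036 libraries. Each gene is represented by its most abundant transcript on average over all 6 libraries, and limma was run on log2(value + 1) for genes that reached 10 or more in 3 or more libraries. Because of the added 1, changes of weakly expressed genes come out too small. All 10 genes passed this filter, among 12725 tested. A gene is called higher or lower when its adjusted p is under 0.01.

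The labelled cell type, adenocarcinoma of the colon, was checked against marker genes. Keratin 8 was the most abundant of 9 epithelial markers, with KRT8 at 55603, 60058 and 64134 in Control and 92924, 106391 and 125395 with DCC-2036, and EPCAM was at 4651, 4558 and 4524 and at 5472, 5341 and 5961. Of these markers 7 passed the filter on low values. Of the intestinal markers, VIL1 was at most 4.12 and CDX1 was at 0 in all 6 libraries, which goes against the label, while CDX2 was between 213 and 365. With DCC-2036, KRT8 and CDH1 rose (log2 fold changes 0.84 and 1.10, limma, adjusted p = 0.0029 and 0.00035) and KRT20 fell (-1.15, adjusted p = 0.0043). The 9 epithelial markers summed to 104483, 108192 and 114998 in Control and to 148337, 163485 and 188447 with DCC-2036. Of 10 markers of immune, endothelial, fibroblast and neural cells, 3 passed the filter, and PTPRC was at 0 in all 6 libraries. COL1A1 was the most abundant of them, at 379.9, 393 and 353 in Control and 429, 420.1 and 520.1 with DCC-2036, and the 10 together summed to 635, 665 and 627 in Control and to 691, 703 and 849 with DCC-2036. The part of these markers in the results was not tested. In RNA from bulk cultures, fewer cells with a transcript and less of it per cell cannot be told apart.

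When growth factor receptors activate RAS, the kinases RAF, MEK and ERK are switched on in turn, and active ERK induces genes that shut the same route down. Dual-specificity phosphatases remove the activating phosphates from ERK and related kinases, Sproutys dampen the signal between receptor and RAF, and SPRED proteins bring the RAS inactivator neurofibromin to the membrane. ETV4 and ETV5, of the PEA3 group of ETS factors, are outputs of the pathway, and transcripts of this kind are widely used to read ERK output in carcinoma cells of the colon, in which RAS and RAF are often mutated.

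The 10 genes did not move together. DUSP6 and ETV4 fell with DCC-2036, each to 42.5% of its mean Control value, and SPRED2 rose to 167%. Thus 1 of the 10 genes was called higher and 2 were called lower, whereas 19.2% of the 12725 genes tested were called higher and 22.7% lower. In 6 of the 10 genes the values of the groups did not overlap, which also held for 71.1% of all genes tested. The median log2 fold change was -0.11 over the 10 genes and -0.09 over all genes tested. These shares do not set the 10 genes apart from the transcriptome, in which 5329 genes were called. With 3 libraries against 3, a two-sided exact permutation test cannot give a p below 0.1, and DUSP6, ETV4, SPRED2, SPRY2, SPRY4 and SPRED1 reached that p of 0.1.

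**Figure D1:**
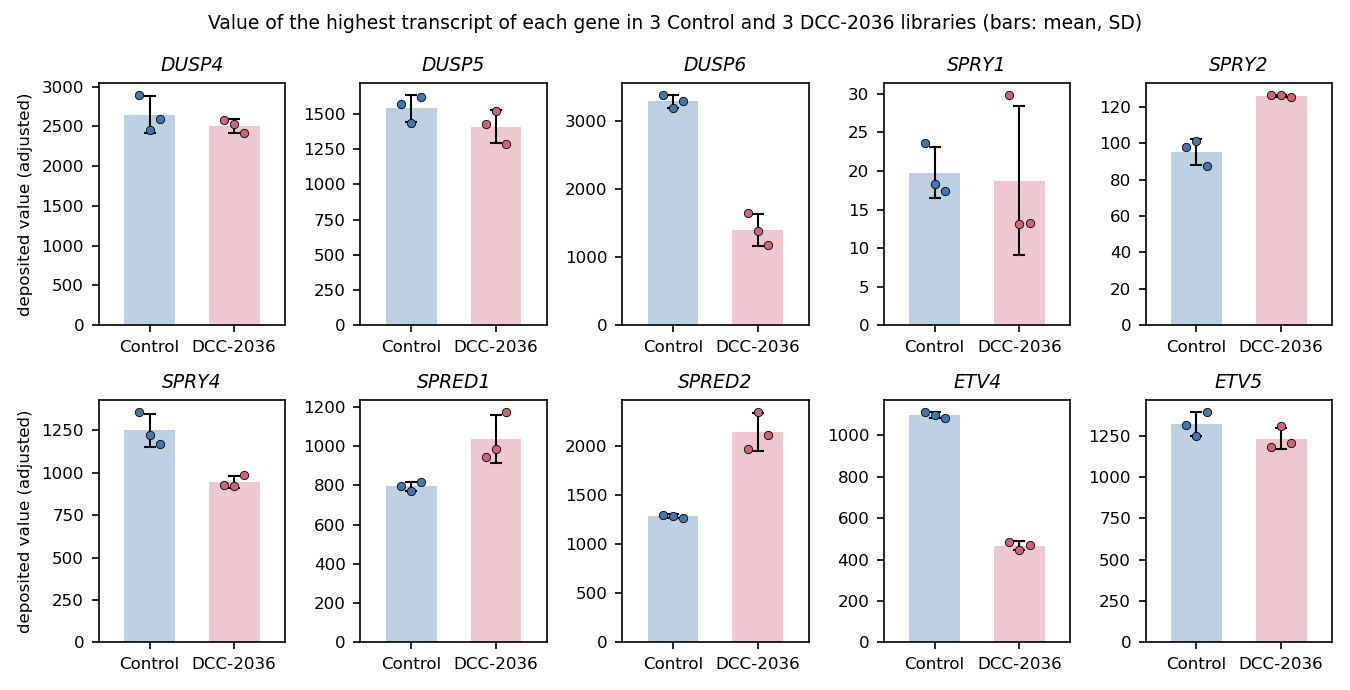
Deposited values (adjusted signal, linear axes from 0) of the highest transcript of each gene, with 1 point per library, bars for the mean and error bars for the SD over 3 libraries. DUSP6 and ETV4 lie far below Control with DCC-2036, SPRED2 lies above it, and the points of DUSP4, DUSP5, SPRY1 and ETV5 overlap between the groups.

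The 3 DCC-2036 libraries differed more from each other than the Control libraries did. The SD over genes of the deviation from the group mean was 0.18, 0.16 and 0.18 on the log2 scale in Control replicates 1, 2 and 3, and 0.33, 0.19 and 0.35 in DCC-2036 replicates 1, 2 and 3. Of the 5329 genes called, 69.5% had their DCC-2036 value nearest to the Control mean in replicate 1, and 64.5% had the farthest in replicate 3. DUSP6 showed this order, whereas ETV4 was nearest to Control in replicate 1 but farthest from it in replicate 2.

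Among the phosphatases, DUSP6, a cytoplasmic phosphatase that acts on ERK, fell about as far as ETV4, and without DCC-2036 replicate 3 ETV4 fell further (-1.24, against -1.13 for DUSP6). The values of DUSP6 were 3389.6, 3189.8 and 3300.4 in Control and 1643, 1384 and 1173 with DCC-2036. Every DCC-2036 library was below every Control library, and the DCC-2036 values were the more spread out. The log2 fold change was -1.25 with a standard error of 0.14 (limma, adjusted p = 0.00084), which is a ratio of 0.42. Leaving out 1 library at a time gave between -1.37 and -1.13. DUSP6 lies at chr12:89347232-89353271 on the minus strand (GRCh38, GENCODE 29), and an antisense gene, AC024909.2, has exons that overlap its own. Whether the counting used strand is not given in the sources used here, so reads of the antisense gene cannot be told apart from those of DUSP6.

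A promoter window of DUSP6 is shown because ETS factors and the repressor CIC are known to act on genes of this kind. The window is chr12:89352452-89352751 on the minus strand, 300 bases in GRCh38.p14 from RefSeq, printed 5′ to 3′ with matches to the motifs searched in capitals. It was taken around a start in RefSeq and lies wholly inside the GENCODE 29 span of DUSP6 given above, downstream of its 5′ end, so another start of the gene would have another window. Which start was used in LoVo cells was not analysed here.
DUSP6: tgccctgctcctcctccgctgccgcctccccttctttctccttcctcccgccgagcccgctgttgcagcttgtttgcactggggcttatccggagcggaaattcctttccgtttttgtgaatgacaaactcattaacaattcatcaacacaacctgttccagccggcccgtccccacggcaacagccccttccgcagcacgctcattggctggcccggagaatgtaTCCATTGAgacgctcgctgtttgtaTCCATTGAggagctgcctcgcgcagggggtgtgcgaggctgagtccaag
Searched on both strands were the CIC motifs TGAATGAA, TGAATGGA and TCAATGAA, the ETS motif CCGGAAG, the AP-1 motif TGANTCA, the CRE motif TGACGTCA and the GC box GGGCGG. A further CIC motif, TCAATGGA, was added after the sequence had been seen. The capitals, at bases 227 and 252, are both TCCATTGA, the reverse complement of that added motif, and the window held no match to the others. Of 35116 RefSeq promoter windows of this length, 0.51% held TCAATGGA, and 115 (0.327%) held 2 or more matches to the CIC motifs, the added motif included. Because that motif was added afterwards, these shares are no test of it. TGAATGAA, TGAATGGA and TCAATGAA were in 1.66%, 1.03% and 0.72% of them, CCGGAAG in 10.3%, TGANTCA in 7.71%, TGACGTCA in 1.85% and GGGCGG in 45.0%. A match describes the letters of the window and not a bound site.

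DUSP4 and DUSP5, phosphatases of the nucleus, were not called. DUSP4 was at 2901, 2449 and 2596 in Control and at 2583, 2528 and 2415 with DCC-2036. For DUSP5 the values were 1573, 1435 and 1621 in Control and 1427, 1523 and 1284 with DCC-2036. In both genes the groups overlapped. The log2 fold change of DUSP4 was -0.08 (95% confidence interval -0.33 to 0.18, limma, adjusted p = 0.56), and that of DUSP5 was -0.13 (interval -0.40 to 0.14, adjusted p = 0.34). Both intervals lie above that of DUSP6, which ran from -1.59 to -0.90. Within each library, DUSP6 over DUSP4 was 1.17, 1.30 and 1.27 in Control and 0.636, 0.548 and 0.486 with DCC-2036. DUSP6 over DUSP5 was 2.16, 2.22 and 2.04 in Control and 1.15, 0.909 and 0.914 with DCC-2036. These ratios of deposited values, which are not per length, differed without overlap between the groups. The difference between the genes was not tested.

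None of the 3 Sproutys was called, and their values did not go the same way. SPRY4, which dampens receptor signalling to RAS and RAF, was measured at 1359, 1223 and 1168 in Control and 928, 923 and 985 with DCC-2036. Every DCC-2036 library was lower, yet the log2 fold change of -0.40 (SE 0.10) had an adjusted p of 0.016 (limma) and was not called. Its 95% confidence interval was -0.65 to -0.15. With equal column totals SPRY4 was at -0.60 (adjusted p = 0.0045), past the limit, as it was with a trend in limma (adjusted p = 0.0072), and with median-of-ratios factors at -0.33 (adjusted p = 0.038). Over all 19 alternatives its adjusted p was between 0.0045 and 0.061.

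SPRY2, the Sprouty best known for binding the ubiquitin ligase CBL, was at 97.8, 101 and 87.3 in Control and 127, 127 and 126 with DCC-2036. Here every DCC-2036 library was higher, and the DCC-2036 values had an SD of 0.615. The log2 fold change was 0.40 with a standard error of 0.10 and a 95% confidence interval of 0.16 to 0.65 (limma, adjusted p = 0.014), just outside the limit, and it depended on the scaling, at 0.47 with median-of-ratios factors (adjusted p = 0.0081) and 0.21 with equal column totals (adjusted p = 0.14). With a trend in limma the adjusted p was 0.053, and over all 19 alternatives it was between 0.0081 and 0.14. The ratio of SPRY4 to SPRY2 was 13.9, 12.1 and 13.4 in Control and 7.34, 7.29 and 7.85 with DCC-2036. SPRY1 was low, at 23.6, 18.4 and 17.4 in Control and 29.9, 13.2 and 13.2 with DCC-2036. Replicate 1 of DCC-2036 was above all Control libraries and the other two were below them, and the interval of the log2 fold change was wide (-0.16, -0.94 to 0.62). Without DCC-2036 replicate 2 the SPRY1 estimate was 0.02, without replicate 3 also 0.02 and without replicate 1 it was -0.54, so its sign changed with the library left out.

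The promoter window of SPRY4, which like DUSP6 and ETV4 had lower values in every DCC-2036 library but was not called, is given for comparison with that of DUSP6. It is chr5:142324198-142324497 on the minus strand, again in GRCh38.p14 from RefSeq. This window too lies wholly inside the span of its gene in GENCODE 29, chr5:142310427-142326455, and starts further upstream were not searched.
SPRY4: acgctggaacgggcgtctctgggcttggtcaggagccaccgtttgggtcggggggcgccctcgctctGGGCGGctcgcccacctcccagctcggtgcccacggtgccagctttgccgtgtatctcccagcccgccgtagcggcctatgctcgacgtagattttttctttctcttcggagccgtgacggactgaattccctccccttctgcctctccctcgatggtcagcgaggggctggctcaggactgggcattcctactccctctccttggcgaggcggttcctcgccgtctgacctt
The capitals mark a GC box at base 68, and no CIC, ETS, AP-1 or CRE motif of those searched was in the window.

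The Sprouty-related genes both had higher values in all DCC-2036 libraries. SPRED2 was at 1302, 1291 and 1263 in Control and at 1966, 2348 and 2107 with DCC-2036. The Control libraries had an SD of 20.3, and every DCC-2036 library was above them. SPRED2 rose by 0.73 on the log2 scale, with a standard error of 0.11 (limma, adjusted p = 0.0018). This call was lost without Control replicate 2 (0.74, adjusted p = 0.011) and without Control replicate 3 (0.72, adjusted p = 0.011), with estimates that changed little. A replicate block in limma also ended the call (0.73, adjusted p = 0.0101). Of all genes tested, 12.9% were called higher with a fold change at least that of SPRED2.

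For SPRED1 the values were 797, 771 and 817 in Control and 947, 988 and 1176 with DCC-2036, with replicate 3 of DCC-2036 the highest. The groups did not overlap, but the log2 fold change of 0.38 (95% confidence interval 0.09 to 0.66, limma, adjusted p = 0.030) was not called. With equal column totals it was 0.18 (adjusted p = 0.15), and over all 19 alternatives the adjusted p of SPRED1 was between 0.017 and 0.15. The ratio of SPRED2 to SPRED1 was 1.63, 1.67 and 1.55 in Control and 2.08, 2.38 and 1.79 with DCC-2036.

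For SPRED2, the called gene that rose, the table of RefSeq windows has 2 starts, both on the minus strand of GRCh38.p14. The upstream window is chr2:65432550-65432849 and the downstream window is chr2:65366729-65367028, inside the gene. Which of them was used was not analysed.
SPRED2 upstream: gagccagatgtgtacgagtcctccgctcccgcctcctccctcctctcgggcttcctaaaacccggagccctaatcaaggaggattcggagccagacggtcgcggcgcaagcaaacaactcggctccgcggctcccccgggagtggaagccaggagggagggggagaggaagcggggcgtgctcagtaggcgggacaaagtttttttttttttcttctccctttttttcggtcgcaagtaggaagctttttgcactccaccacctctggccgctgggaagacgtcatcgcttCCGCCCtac
SPRED2 downstream: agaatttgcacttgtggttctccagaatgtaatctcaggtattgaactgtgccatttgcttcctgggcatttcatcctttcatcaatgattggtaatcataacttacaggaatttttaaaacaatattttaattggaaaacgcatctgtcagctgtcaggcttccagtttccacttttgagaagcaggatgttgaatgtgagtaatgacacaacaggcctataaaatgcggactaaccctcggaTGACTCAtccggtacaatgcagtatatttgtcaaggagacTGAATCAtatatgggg
Capitals mark a GC box on the opposite strand at base 292 of the upstream window and AP-1 motifs at bases 245 and 285 of the downstream window. Of all promoter windows, 0.515% held 2 or more AP-1 matches. Windows of SPRY1, SPRY2 and SPRED1 were searched too and are not printed. They held no CIC, AP-1 or CRE motif of those searched. An ETS motif was at base 184 of a SPRY1 window, and each of these genes had a GC box in some window.

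Of the ETS factors, ETV4 fell and ETV5 was not called. ETV4 was at 1112, 1099 and 1082 in Control and 486, 445 and 470.2 with DCC-2036. The 3 libraries of each group lay close together, with SDs of 15.0 and 20.9, and the groups were far apart. The log2 fold change was -1.23 with a standard error of 0.09 (limma, adjusted p = 0.00028), and it stayed between -1.26 and -1.20 when any 1 library was left out. Of all genes tested, 11.6% were called lower with a fold change at least as low. ETV5, its close relative, was at 1317, 1249 and 1394 in Control and 1184, 1307 and 1207 with DCC-2036, and these values overlapped. The log2 fold change of ETV5 was -0.10 (95% confidence interval -0.34 to 0.14, limma, adjusted p = 0.42). ETV4 over ETV5 was 0.844, 0.880 and 0.776 in Control and 0.411, 0.340 and 0.390 with DCC-2036, with no overlap, while the difference between the genes was not tested.

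ETV4 and ETV5 each have exons that overlap another gene, which limits what their values can show. ETV4 lies at chr17:43527844-43579620 on the minus strand (GRCh38, GENCODE 29) and overlaps DHX8, an RNA helicase gene on the opposite strand. DHX8 was at 1801, 1820.1 and 1923 in Control and 2081, 2081 and 1688 with DCC-2036 and was not called (log2 fold change 0.07, limma, adjusted p = 0.62). ETV5, at chr3:186046308-186110318 on the minus strand, overlaps DGKG, a diacylglycerol kinase gene on the same strand. DGKG fell from 252, 272 and 278 to 51.6, 30.4 and 19.4 (log2 fold change -3.05, limma, adjusted p = 0.00068). How reads in overlapping exons were assigned is not given in the sources used here, and the part of such reads in the ETV4 and ETV5 values was not tested.

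**Figure D2:**
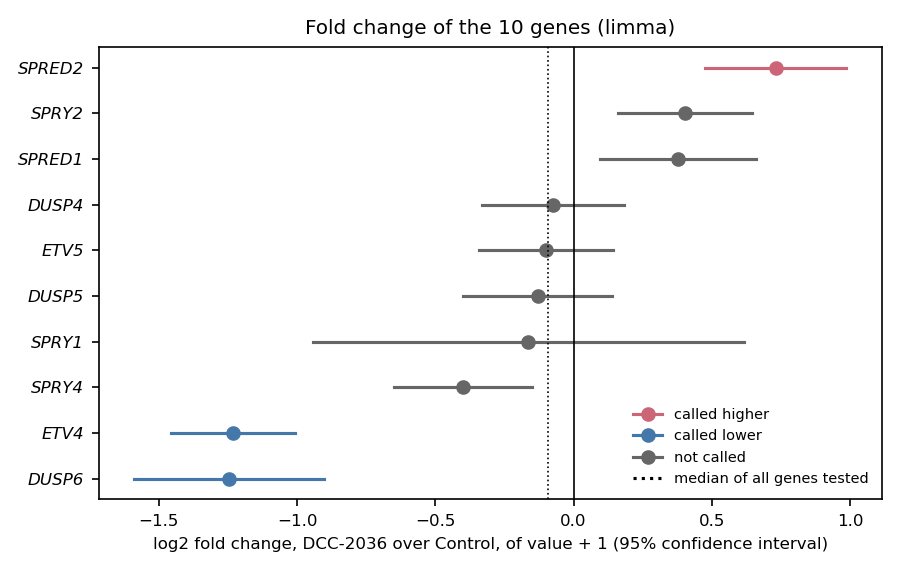
Log2 fold change of value + 1, DCC-2036 over Control, with 95% confidence intervals from limma, ordered from the highest (SPRED2, 0.73) to the lowest (DUSP6, -1.25). The dotted line is the median of all genes tested, and only SPRED2, ETV4 and DUSP6 are called.

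The order of the fold changes ran from SPRED2 through SPRY2, SPRED1, DUSP4, ETV5, DUSP5, SPRY1 and SPRY4 to ETV4 and DUSP6. DUSP6 and ETV4 had nearly the same fold change, and their profiles over the 6 libraries differed by a root mean square of 0.13 on the log2 scale. Over 3 other scalings of the libraries the log2 fold change of DUSP4 ran from -0.27 to -0.01. Equal column totals moved the median of all genes from -0.09 to -0.29. Relative to the median of all genes, the log2 fold changes were -1.15 for DUSP6, -1.14 for ETV4, -0.31 for SPRY4, 0.47 for SPRED1, 0.49 for SPRY2 and 0.82 for SPRED2, whereas DUSP4, DUSP5, ETV5 and SPRY1 lay between -0.07 and 0.02 of it.

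The other transcripts of a gene had fold changes close to that of its main transcript. Of 26 transcripts, all passed the filter when every transcript was its own row, and 2 were called higher and 7 lower, where 42.2% of all 32323 transcripts were called in either direction. The second transcript of DUSP6 was at 2492, 2292 and 2352 in Control and 1209, 1002 and 851 with DCC-2036. The 5 ETV4 transcripts had log2 fold changes from -1.27 to -1.22, and the 2 of SPRED2 had 0.68 and 0.73. All of these 9 transcripts were called. None of the 4 SPRY4 transcripts (-0.40 to -0.39), the 4 SPRY2 transcripts (0.31 to 0.40), the 4 SPRY1 transcripts (-0.17 to -0.14) or the 2 DUSP4 transcripts (-0.08 and -0.04) was called. DUSP5, SPRED1 and ETV5 had 1 transcript each. Transcripts of a gene can share sequence and hence reads, so they are not taken as separate measurements. How much they share was not measured.

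**Figure D3:**
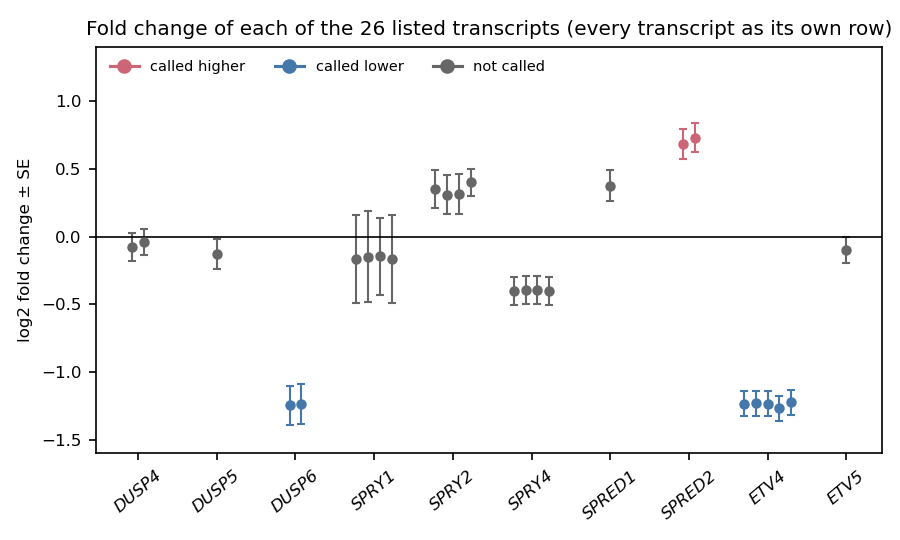
Log2 fold change with its standard error for each of the 26 transcripts, fitted with every transcript as its own row and grouped by gene. Transcripts of 1 gene differ by at most 0.0934, which is the spread of SPRY2.

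Levels of different genes were compared per length, as the value per kb of the main transcript. In Control, DUSP6 was highest at 748 per kb, then came DUSP5 at 603, DUSP4 at 478, ETV4 at 452, ETV5 at 321, SPRED2 at 314, SPRY4 at 253, SPRED1 at 102, SPRY2 at 45.2 and SPRY1 at 7.59. DUSP4 overlapped ETV4, and ETV5 overlapped SPRED2, whereas the other neighbours in that order had libraries that did not overlap. With DCC-2036 the order of levels per kb was DUSP5 at 552, SPRED2 at 522, DUSP4 at 453, DUSP6 at 318, ETV5 at 299.9, ETV4 at 192, SPRY4 at 191, SPRED1 at 133, SPRY2 at 59.8 and SPRY1 at 7.20. DUSP5 overlapped SPRED2, DUSP6 overlapped ETV5 and ETV4 overlapped SPRY4. DUSP6 thus went from the highest level of the 10 genes to the fourth. Transcripts of other lengths gave other levels per kb, among them those of SPRY4, SPRED2 and DUSP6, so the order holds for the main transcripts only. The other SPRED2 transcript was at 644 per kb in Control and 1038 with DCC-2036, and the other DUSP6 transcript at 1214 and 521.

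The relatives of the 10 genes also split. Of 24 listed relatives 23 were tested, 4 were called higher and 7 lower, and the median log2 fold change was -0.32, against 19.2% and 22.7% called and a median of -0.09 over all genes. SPRY3, the remaining Sprouty, was too low to be tested. DUSP8, a phosphatase of stress kinases, rose from 111, 118 and 113 to 279, 376 and 346 (log2 fold change 1.53). The ETS factors ELF1 (1.21) and ETS2 (0.89) also rose. SPRED3 fell from 62.0, 62.3 and 71.0 to 20.7, 9.99 and 28.8 (log2 fold change -1.78), as did ERF, an ETS repressor that ERK inactivates (-1.49), and DUSP3 (-1.33). The adjusted p-values of these 6 genes (limma) were between 0.00041 and 0.0054.

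Of 25 other outputs and feedback genes of ERK, 24 were tested, 3 were called higher and 6 lower, where 19.2% and 22.7% of all genes were. The median log2 fold change was -0.22, beside -0.09 over all genes. KCNN4, a potassium channel gene, fell from 1153, 989 and 1174 to 430.0, 293 and 184 (log2 fold change -1.95). EGR1, an immediate early transcription factor, fell from 1208, 1157 and 1155 to 242, 388 and 461 (-1.74), and FOSL1, a subunit of AP-1, from 1681, 1557 and 1861 to 628, 722 and 843 (-1.22). LRIG1, a brake on ERBB receptors, rose from 68.9, 40.9 and 48.7 to 135, 143 and 163 (1.49), and HBEGF (0.85) and TGFA (0.42), which encode growth factors, rose too. For TGFA the adjusted p was 0.0095 (limma), next to the limit, and for the other 5 genes it was at most 0.0058.

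All 30 genes of the route from receptor to ERK were tested, and 9 were called higher and 3 lower, beside 19.2% higher and 22.7% lower among all genes. Their median log2 fold change was 0.11, and that of all genes -0.09. The adaptor gene GRB2 rose from 5129, 5392 and 5682 to 11217, 14023 and 17054 (log2 fold change 1.36), and PEBP1, which encodes an inhibitor of kinase signalling, rose as well (1.20). The receptor gene ERBB3 fell from 532, 454 and 509 to 187, 167 and 156 (-1.55), and MAP2K2, which encodes a MEK (-0.83), and FGFR1 (-0.61) fell too. These 5 genes had adjusted p-values (limma) of at most 0.0077.

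Partners and regulators of the 10 genes were counted last. Of 16 listed names 15 were in the table, since COP1 and RFWD2 name the same gene, which is listed there as RFWD2, and all 15 were tested. Of these, 5 were called higher and 4 lower (all genes, 19.2% and 22.7%), and the median log2 fold change was 0.08 (all genes, -0.09). CIC, the repressor that binds near DUSP6 and ETV genes when ERK is off, fell from 1833, 1795 and 1976 to 890.4, 595 and 409 (log2 fold change -1.63). DET1, which joins COP1 in the ubiquitin ligase that degrades ETV proteins, fell from 65.8, 73.0 and 68.1 to 16.5, 5.60 and 14.0 (-2.54), and CAV1, a caveolin known to bind Sproutys, fell by 0.91 on the log2 scale. The phosphatase subunit gene PPP2CA rose from 3987, 3945 and 3871 to 6458, 8619 and 11500.5 (1.13), as did the kinase gene DYRK1A (0.99) and the ubiquitin ligase gene SIAH2 (0.92). Adjusted p-values of these 6 genes (limma) were at most 0.0076. RFWD2 itself, unlike DET1, rose from 505, 538 and 528 to 944, 920 and 889 (0.81, limma, adjusted p = 0.00084). NF1, the partner of SPRED proteins, is in this list and in that of the route to ERK, and was not called (0.28, adjusted p = 0.035).

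**Figure D4:**
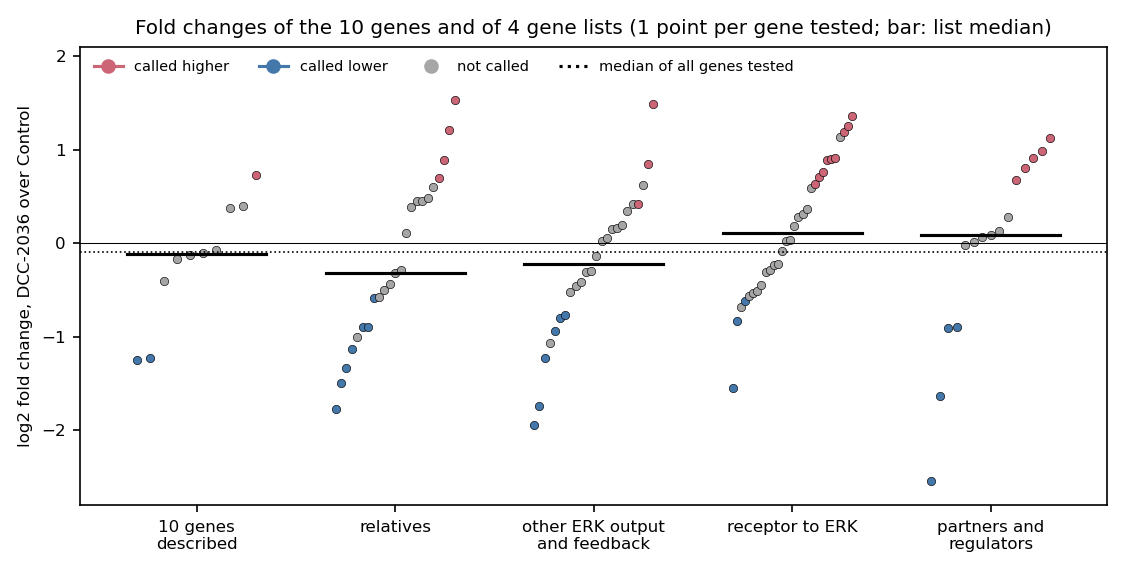
Log2 fold changes of the 10 genes and of the 4 gene lists, with 1 point per gene tested, a bar for each median and a dotted line for the median of all genes tested (-0.09). In each list some genes are called higher and others lower.

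The genes whose profile over the 6 libraries was most like that of DUSP6, the gene with the lowest fold change, were WDR55, PPP2R5B and ANTXR2, with root mean square differences of 0.03, 0.03 and 0.05 on the log2 scale. For SPRED2, with the highest, they were NDUFAF5, TRPC4AP and ABLIM1, with differences of 0.03, 0.04 and 0.04.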

How the data were processed

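RNA was measured in 6 libraries of LoVo cells, grouped by the titles in the labels. The deposited table holds a signal per RefSeq transcript and library that had been brought to a common depth by the authors, and the aligner, the counting and the use of strand are not given in the sources used here. Values are not whole numbers, and reads were not recovered. In DCC-2036 the same 5697 rows were at 0 in all 3 libraries and no other row was at 0 in any, whereas in Control 5929 rows were at 0 in all 3 and 9848 in at least 1. The bearing of this adjustment on the spread was not tested. The table also holds columns of the authors' own comparison of the groups, namely fold changes with p-values and q-values, which were not used.

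From these values the most abundant transcript per symbol, by the mean of all 6 libraries, was taken, symbols that did not reach 10 in 3 or more libraries were dropped, and limma 3.58.1 in R 4.3.3 was fitted, two-sided and without covariates, to log2(value + 1). P-values were adjusted by the Benjamini-Hochberg method over all 12725 genes and called under 0.01. The code was tested on simulated data. Exact permutation tests used scipy 1.17.1 in Python 3.11.15, tables pandas 2.3.3 and numpy 2.4.6, and figures matplotlib 3.10.9. Gene positions and transcript lengths came from GENCODE 29 and promoters from a table of RefSeq windows. Windows of 6 of the genes were used, and none of DUSP4, DUSP5, ETV4 and ETV5. Windows on chromosome 8, where DUSP4 lies, were left out when those of the 10 genes were taken.

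The 10 genes and the lists were chosen with earlier results of these data known. Named are the 10 genes, the markers, up to 3 called genes with the highest and 3 with the lowest fold change per list, and the 3 nearest profiles outside the 10 for the genes with the highest and lowest fold change. A gene that this rule names in the list of the route to ERK is not reported here. DHX8 and DGKG were added after the overlap of exons had been seen, and RFWD2 after its change had been seen, as the partner of DET1. Alternatives were other scalings, filters, pseudocounts of 0.1 and 10, limma with a trend, other limits, sums over transcripts or all transcripts as rows, a replicate block and each library left out.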

Additional observations from a re-analysis of the deposited data

How the results depend on the processing

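DUSP6 and ETV4 were called lower under all 19 alternatives, with log2 fold changes from -1.44 to -1.13 and from -1.43 to -1.16 and adjusted p-values (limma) of at most 0.0059 and 0.0043. The count of the 10 genes called higher, 1 as reported, was 2 with median-of-ratios factors, 3 at an adjusted p under 0.05, 0 when the log2 fold change also had to be at least 1 in size, and 0 to 1 when 1 library was left out. The count called lower, 2 as reported, was 3 with equal column totals, with a trend in limma and at an adjusted p under 0.05, each time with SPRY4 added. SPRED2 was between 0.53 and 0.80 under all alternatives. SPRY1 was between -0.54 and 0.02 when 1 library was left out and turned positive without DCC-2036 replicate 2 (0.0248) and without DCC-2036 replicate 3 (0.0206).

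Over all genes, 2442 were called higher and 2887 lower. With that limit on size 944 genes were higher and 1930 lower, so that 32.8% of the called genes were higher, and all transcripts as rows gave 6379 higher and 7250 lower. Leaving out 1 library gave 928 to 2675 higher and 1514 to 3507 lower, with fewer samples. The lowest counts higher came without DCC-2036 replicate 2 (928) and without Control replicates 3 (992), 2 (1000) and 1 (1054). With equal column totals 32.7% of the called genes were higher, against 45.8% as reported. Of 152 recomputed counts of the gene lists, 112 were within 1.5 times the reported count and 40 were not. Leaving out 1 library gave 3 to 5 higher and 2 to 8 lower relatives, 1 to 4 higher and 3 to 9 lower other outputs, 5 to 11 higher and 1 to 4 lower genes of the route to ERK and 2 to 5 higher and 3 to 4 lower partners.

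Deviations of same-numbered libraries correlated across genes at 0.081, -0.035 and -0.003. For libraries with unlike numbers the correlations were between -0.06 and 0.091. Because the authors had already adjusted the values, these correlations cannot show whether the replicate numbers pair the samples. A replicate block gave 1202 genes higher and 1909 lower and 0 of the 10 genes higher, with SPRED2 at an adjusted p of 0.010, and 2 lower. DESeq2 and edgeR, which need read counts, were not run. Depth per library is unknown, so no counting error can be given for the low values of SPRY1 and SPRY2.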
